A study of Mus musculus with 6 samples.

Results

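The genes described here are the cyclins that drive cells through the G1 phase and the inhibitors that hold them there: the D-type cyclins Ccnd1, Ccnd2 and Ccnd3, the E-type cyclins Ccne1 and Ccne2, and the inhibitors Cdkn1a, Cdkn1b, Cdkn2a, Cdkn2b and Cdkn2c. They were chosen by name, 10 genes in all, and taken from probe sets whose platform annotation gives that single symbol. Of these, 9 were measured, among 22180 genes in the whole table, each by 1 probe set. Ccne2 was not measured by this rule, because its probe set carries a second symbol, Ints8.

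RNA of 6 mouse samples, 1 for each group, was measured with a whole-transcript expression array of Affymetrix (Mouse Gene 2.0 ST). The cultures were embryoid bodies made from induced pluripotent stem (iPS) cells by 5 days in suspension, then plated with 1% DMSO plus 100 ng/ml NRG1, with NRG1 alone or with DMSO alone, and labelled as day 7 of differentiation. NRG1, neuregulin 1, is a growth factor that acts through ERBB receptors, and DMSO is a solvent used to start differentiation. The other libraries were labelled adult cardiomyocytes and neonatal cardiomyocytes, from mouse hearts, and undifferentiated iPS cells, which were kept on feeder cells with serum and LIF. Every sample was labelled as female and of strain DBA/2J. There was no differentiated culture without an added agent, so a difference of a culture from iPS cells covers differentiation and agent together. Values are log2 expression levels after RMA, the authors' normalization. With 1 library per group there was no replicate, no test was run, and no difference below has a replicate check. Technical error could be judged only from how far the 2 probe sets of a gene differed, called probe set disagreement below. It was an SD of 0.553 to 0.601 for differences from iPS cells and of 0.197 to 0.345 for the other comparisons made here. Both probe sets lie on the same arrays, so it holds no variation between arrays or cultures. A difference beyond it is beyond 1 SD only.

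Cells enter the division cycle through a chain in which growth signals raise the D-type cyclins, the D-type cyclins activate the kinases Cdk4 and Cdk6, and these phosphorylate the retinoblastoma protein. This frees E2F transcription factors, which switch on the E-type cyclins, and cyclin E with Cdk2 then starts DNA replication. INK4 inhibitors, made by the Cdkn2 genes, bind Cdk4 and Cdk6, and CIP/KIP inhibitors, made by the Cdkn1 genes, bind cyclin-kinase complexes. Pluripotent mouse cells are known for a short G1 phase with high cyclin E, and heart muscle cells for leaving the cycle soon after birth.

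The labels were checked against marker genes. In the iPS library 11 of 12 pluripotency genes reached the median level of the whole table (5.20), with Nanog at 11.85. All 15 cardiomyocyte genes reached that median in the cultures with DMSO plus NRG1 and with DMSO, and 14 did with NRG1. In the library labelled adult cardiomyocytes only 8 of the 15 did, with the adult myosin heavy chain Myh6 at 5.05, and the log2 of the summed level of the 15 genes was 9.82, against 11.65 in the neonatal-labelled library. That adult value is close to the 9.57 of the iPS library. Epithelial genes and endoderm genes were high in the cultures, 8 of 11 epithelial genes being at least 2-fold above iPS cells in each and 9, 9 and 8 of 11 endoderm genes with DMSO plus NRG1, NRG1 and DMSO. All 12 fibroblast genes were at least 2-fold higher in both heart-derived libraries than in iPS cells. Their log2 summed level was 15.22 in the adult-labelled and 14.76 in the neonatal-labelled library, against 11.72 in iPS cells. Markers below the median of the whole table in iPS cells, such as Lum (4.38) and Afp (4.76), could be counted only as higher. The Y-linked gene Eif2s3y stood at 8.15 in the adult-labelled and 6.20 in the neonatal-labelled library, against 3.27 in iPS cells, which goes against their labels as female. Xist, the RNA of the inactive X chromosome in female cells, stood at 3.39 in the adult-labelled and 8.78 in the neonatal-labelled library, the highest of the 6, so the neonatal-labelled library carried both signals. The heart-derived libraries are therefore called by their labels only. In bulk RNA, fewer cells of a type and less RNA per cell cannot be told apart, and the part of these marker genes' cell types in the member differences was not tested.

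**Figure D1:**
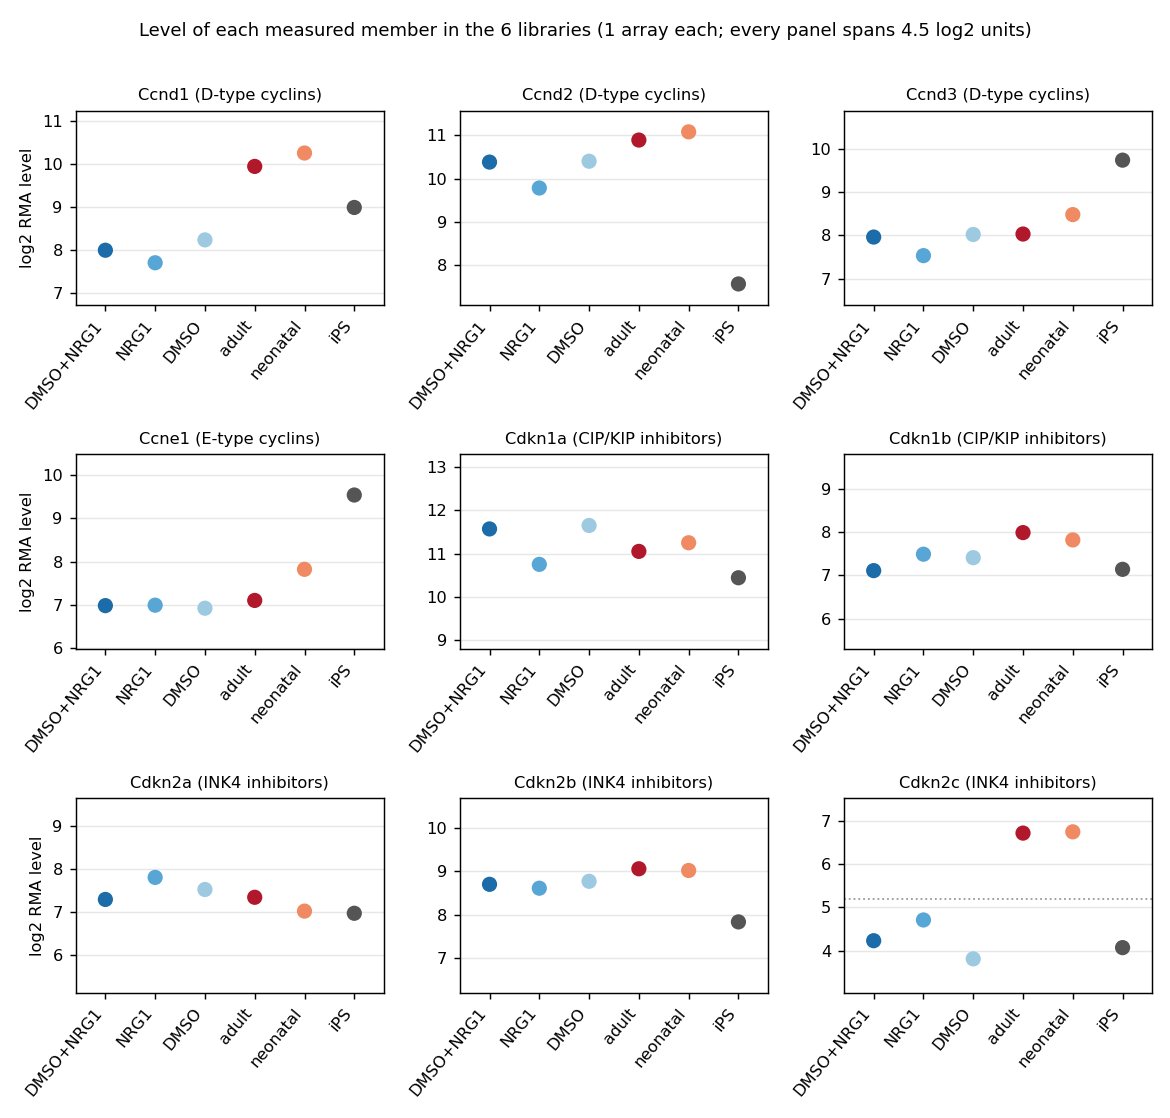
Levels of the 9 measured genes on the log2 RMA scale (vertical axis), 1 point per library and 1 array per library, with panels of equal height that should not be compared in absolute level because each gene has its own probes. Ccnd2 and Cdkn2b are lowest in iPS cells, Ccnd3 and Ccne1 highest there, and Cdkn2c is above the dotted line (the median of all values, 5.20) only in the heart-derived libraries.

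Among the D-type cyclins, the 3 genes had 3 different patterns. Ccnd2 was far higher in every differentiated or heart-derived library than in iPS cells, Ccnd3 was lower in all of them in the values as deposited, and Ccnd1 was higher in the heart-derived libraries and lower in the cultures.

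Ccnd2, cyclin D2, had a level of 10.38 with DMSO plus NRG1, 9.78 with NRG1, 10.40 with DMSO, 10.89 in the adult-labelled library and 11.08 in the neonatal-labelled library, against 7.56 in iPS cells. The iPS library stood apart from the other 5, the nearest of which was 2.22 above it. The differences from iPS cells were 2.82, 2.22 and 2.84 in the cultures, in that order, and 3.33 and 3.52 in the adult-labelled and neonatal-labelled libraries, which are between 4.65-fold (NRG1) and 11.4-fold (neonatal-labelled). Each lay at or above the 97.8th percentile of the differences of the genes that passed the filter on dim genes in its comparison, and was the largest difference upward among the members. With the libraries shifted to an equal median level of 8 housekeeping genes, the differences ran from 2.68 to 4.16. This shift, used here and below, was larger in size than the median of those genes' own differences from iPS cells. Among the libraries other than iPS, the adult-labelled and neonatal-labelled libraries were 0.19 apart and DMSO plus NRG1 and DMSO 0.02 apart, both within the disagreement of probe sets.

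Ccnd3, cyclin D3, had a level of 7.96 with DMSO plus NRG1, 7.53 with NRG1, 8.02 with DMSO, 8.03 in the adult-labelled library and 8.48 in the neonatal-labelled library, against 9.74 in iPS cells. The iPS library was again the one apart, here at the high end. The differences from iPS cells were -1.77, -2.20 and -1.72 in the cultures and -1.71 and -1.26 in the heart-derived libraries, between 2.39-fold and 4.61-fold in size. The levels with DMSO plus NRG1, with DMSO and in the adult-labelled library did not differ beyond the probe set disagreement. With equal housekeeping medians Ccnd3 stayed past 2-fold with NRG1 (-1.74) and in the adult-labelled library (-1.19), but not with DMSO plus NRG1 (-0.96), with DMSO (-0.88) or in the neonatal-labelled library (-0.61).

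Ccnd1, cyclin D1, the D-type cyclin best known as a target of growth factor signals, had a level of 8.0 with DMSO plus NRG1, 7.71 with NRG1 and 8.24 with DMSO, 9.94 in the adult-labelled and 10.25 in the neonatal-labelled library, and 8.99 in iPS cells. As deposited, the cultures thus lay below iPS cells and the heart-derived libraries above them. The share of all genes with such a split was not counted, so the split is not read as particular to Ccnd1. The differences from iPS cells were -0.99, -1.27 and -0.75 in the cultures, against 0.95 and 1.26 in the heart-derived libraries, and the one with NRG1 (2.42-fold) and the neonatal one (2.40-fold) passed 2-fold. With equal housekeeping medians the differences were -0.18, -0.82 and 0.09 in the cultures, none past 2-fold and the one with DMSO of the other sign, against 1.47 and 1.91 in the heart-derived libraries. Setting the levels in order, the step from the adult-labelled library to iPS cells (0.95) and that from iPS cells to DMSO (0.75) exceeded the probe set disagreement of those pairs (0.598 and 0.553), and the step between the heart-derived libraries (0.31) did not.

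Of the E-type cyclins, Ccne1, cyclin E1, which activates Cdk2 at the start of DNA replication, had a level of 6.98 with DMSO plus NRG1, 6.99 with NRG1, 6.92 with DMSO, 7.10 in the adult-labelled library and 7.82 in the neonatal-labelled library, against 9.54 in iPS cells. All 5 were lower than iPS cells, and neighbours among the cultures and the adult-labelled library were at most 0.12 apart. The differences were -2.57, -2.56 and -2.63 in the cultures, at the 1.5th to 1.7th percentile of the genes that passed the filter, and -2.44 and -1.72 in the adult-labelled and neonatal-labelled libraries. In the cultures and the adult-labelled library this was a level 5.43-fold to 6.17-fold lower than in iPS cells. With equal housekeeping medians Ccne1 stayed past 2-fold in all 5, from -1.07 in the neonatal-labelled library to -2.10 with NRG1. Ccne2, cyclin E2, is named in 1 probe set together with Ints8, a subunit of the Integrator complex, and the level of that probe set is not assigned to either gene.

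Ccnd3 and Ccne1 had nearly the same pattern over the 6 libraries, with a Pearson r of 0.97 that is given as a description over 6 points from shared arrays. Ccnd2 ran the other way, at r of -0.73 with Ccnd3 and -0.80 with Ccne1. The RefSeq promoter windows of these genes, of 250 bases before to 50 after an annotated start (GRCm38.p6), are shown because both cyclins share this pattern. RefSeq entries were found for 7 of the 10 genes, and none was found for Ccnd1, Ccnd2 or Ccne2. Capitals mark GC boxes (GGGCGG on either strand, a motif bound by Sp1-type factors, with no overlaps between matches here), and each sequence runs 5′ to 3′ along the gene's strand.
Ccne1 (chr7:38107441-38107740, minus strand): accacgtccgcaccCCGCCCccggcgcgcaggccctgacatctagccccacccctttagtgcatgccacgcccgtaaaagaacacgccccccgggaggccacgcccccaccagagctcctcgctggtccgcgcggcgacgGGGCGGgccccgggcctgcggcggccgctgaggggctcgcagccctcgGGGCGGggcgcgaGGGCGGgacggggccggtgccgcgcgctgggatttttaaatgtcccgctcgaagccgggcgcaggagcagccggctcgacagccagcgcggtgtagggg
Ccnd3 first start (chr17:47504801-47505100, plus strand): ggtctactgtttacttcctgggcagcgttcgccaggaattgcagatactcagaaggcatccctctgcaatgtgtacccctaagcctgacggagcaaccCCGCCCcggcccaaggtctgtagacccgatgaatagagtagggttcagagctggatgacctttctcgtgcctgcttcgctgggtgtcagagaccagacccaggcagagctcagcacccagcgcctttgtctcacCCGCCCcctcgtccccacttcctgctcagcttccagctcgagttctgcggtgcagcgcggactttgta
Ccnd3 second start (chr17:47593217-47593516, plus strand): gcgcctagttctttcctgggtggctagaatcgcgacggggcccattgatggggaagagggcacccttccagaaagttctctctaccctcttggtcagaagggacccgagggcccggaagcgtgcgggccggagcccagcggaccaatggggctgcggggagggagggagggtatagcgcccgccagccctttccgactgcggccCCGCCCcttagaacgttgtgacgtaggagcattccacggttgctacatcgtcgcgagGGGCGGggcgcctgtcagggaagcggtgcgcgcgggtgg
The Ccne1 window held 4 GC boxes and the Ccnd3 windows 2 each, and 35.7% of all 32851 promoter windows held at least 1. Each motif was searched on both strands. The E2F site, searched as TTTCCCGC, TTTCGCGC, TTTGCCGC or TTTGGCGC on both strands, had no match in these 3 windows and was present in 2.3% of all windows. The absence of these letters says nothing of E2F binding. The GC content was 76.0% for Ccne1 and 59.3% and 67.0% for the Ccnd3 windows, against a median of 52.7% over all windows.

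Among the INK4 inhibitors, Cdkn2c separated the heart-derived libraries from all others, Cdkn2b was lowest in iPS cells, and Cdkn2a differed little. Cdkn2c, which makes p18INK4c, had a level of 4.23 with DMSO plus NRG1, 4.71 with NRG1 and 3.81 with DMSO, 6.72 in the adult-labelled and 6.75 in the neonatal-labelled library, and 4.07 in iPS cells. The heart-derived libraries were 0.03 apart and lay 2.01 above the next library, with NRG1. They were the only ones above the median of all values (5.20), so that the gene passed the filter on dim genes only through them. Their deposited levels differed from that of iPS cells by 2.65 and 2.68. The level in iPS cells is dim, so no fold is read from these values, and a gene that passed in this way could be called only as higher in them. The levels in the cultures are dim too.

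The windows at the annotated starts of Cdkn2c are shown because the heart-derived libraries stood apart from the others in this gene, with GC boxes in capitals as above.
Cdkn2c first start (chr4:109666707-109667006, minus strand): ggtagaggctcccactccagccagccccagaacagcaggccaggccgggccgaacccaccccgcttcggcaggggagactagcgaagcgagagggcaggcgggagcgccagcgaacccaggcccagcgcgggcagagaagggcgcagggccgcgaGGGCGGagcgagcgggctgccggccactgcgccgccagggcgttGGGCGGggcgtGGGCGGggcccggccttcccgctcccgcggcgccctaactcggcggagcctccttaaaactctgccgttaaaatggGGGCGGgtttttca
Cdkn2c second start (chr4:109665323-109665622, minus strand): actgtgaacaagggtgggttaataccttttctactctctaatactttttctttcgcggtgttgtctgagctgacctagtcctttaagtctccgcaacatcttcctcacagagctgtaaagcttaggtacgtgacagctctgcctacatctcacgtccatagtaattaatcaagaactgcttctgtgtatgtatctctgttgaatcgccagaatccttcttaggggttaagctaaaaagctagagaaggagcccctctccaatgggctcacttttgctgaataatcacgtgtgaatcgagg
The first window held 4 GC boxes in a sequence of 73.3% GC. The second held no GC box, at 44.0% GC, and had 1 CCAAT box and 1 E-box (CACGTG, the motif of Myc and related factors), motifs found in 37.4% and 7.2% of all windows. The array has 1 probe set for the gene, so the use of the starts cannot be told apart.

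Cdkn2b, which makes p15INK4b, an inhibitor known to be induced by TGF-beta, had a level of 8.70 with DMSO plus NRG1, 8.61 with NRG1, 8.77 with DMSO, 9.06 in the adult-labelled library and 9.02 in the neonatal-labelled library, against 7.83 in iPS cells. The other 5 libraries all lay above iPS cells, with no step between them beyond the probe set disagreement. The differences were 0.88, 0.78 and 0.94 in the cultures and 1.23 and 1.19 in the heart-derived libraries, where it passed 2-fold. Over the 6 libraries the pattern of Cdkn2b was close to that of Ccnd2, with an r of 0.99.

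Cdkn2a makes p16INK4a and, from another first exon, the p53 activator p19ARF, and its probe set cannot tell these apart. Its level was 7.29 with DMSO plus NRG1, 7.80 with NRG1, 7.52 with DMSO, 7.34 in the adult-labelled library and 7.02 in the neonatal-labelled library, against 6.97 in iPS cells. The whole span was 0.82, no library was 2-fold from another, and every step in the order of levels was within the disagreement of probe sets. Libraries further apart in that order did differ beyond it. NRG1 differed from iPS cells by 0.82 (disagreement 0.601), and DMSO plus NRG1 from NRG1 by -0.50 (disagreement 0.299).

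Of the CIP/KIP inhibitors, Cdkn1a, which makes p21, a target of p53 and of other stress signals, was at least 2-fold higher than in iPS cells in both cultures that had received DMSO. Its level was 11.57 with DMSO plus NRG1, 10.75 with NRG1, 11.65 with DMSO, 11.05 in the adult-labelled library and 11.25 in the neonatal-labelled library, against 10.44 in iPS cells. The differences from iPS cells were 1.13, 0.32 and 1.22 in the cultures and 0.62 and 0.81 in the heart-derived libraries. With equal housekeeping medians the heart-derived libraries passed 2-fold too, at 1.14 and 1.46, and NRG1 alone stood at 0.78. Each step in the order of levels was within the disagreement of probe sets, while the span from DMSO to iPS cells was 1.22. Cdkn1b, which makes p27, was 7.11 with DMSO plus NRG1, 7.49 with NRG1, 7.41 with DMSO, 7.99 in the adult-labelled library and 7.82 in the neonatal-labelled library, against 7.14 in iPS cells. It spanned 0.88 in all, and no step between neighbours exceeded the disagreement of probe sets. The differences of the adult-labelled (0.85) and neonatal-labelled (0.68) libraries from iPS cells did exceed it (0.598 and 0.589).

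**Figure D2:**
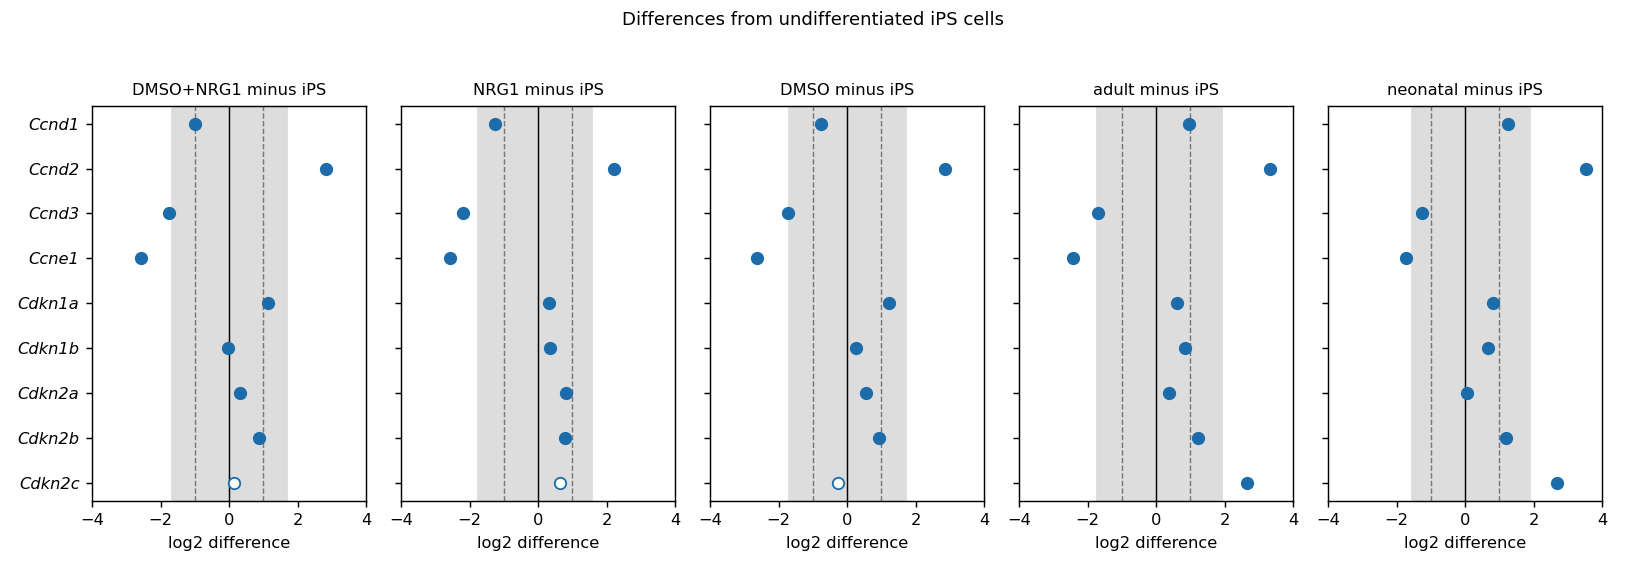
Differences of each gene from iPS cells on the log2 scale (horizontal axis), 1 panel per library, with dashed lines at 2-fold, the grey band from the 5th to the 95th percentile of all genes tested, and open points for a gene below the filter in both libraries. Ccnd2 lies beyond the band in every panel, Ccne1 below it in every panel, and Cdkn2c beyond it in the adult-labelled and neonatal-labelled panels only.

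Counted over the members, a gene was called when it differed by 2-fold or more and the higher of its 2 levels reached the median of all values. With DMSO plus NRG1, 2 of the 9 measured members were higher than in iPS cells (Ccnd2 and Cdkn1a), where the background was 13.0% of the 13696 genes that passed the filter, and 2 were lower (Ccnd3 and Ccne1), where it was 13.1%. All backgrounds are shares of the genes that passed the filter in that comparison. With NRG1, 1 was higher (Ccnd2; background 11.3%) and 3 were lower (Ccnd1, Ccnd3 and Ccne1; background 14.5%). With DMSO, 2 were higher (Ccnd2 and Cdkn1a; background 13.1%) and 2 were lower (Ccnd3 and Ccne1; background 13.3%).

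In the adult-labelled library 3 were higher (Ccnd2, Cdkn2b and Cdkn2c; background 13.1%) and 2 lower (Ccnd3 and Ccne1; background 14.1%). In the neonatal-labelled library 4 were higher (Ccnd1, Ccnd2, Cdkn2b and Cdkn2c; background 13.0%) and 2 lower (Ccnd3 and Ccne1; background 11.2%). In both counts Cdkn2c passed the filter only through the heart-derived library, so it could be called only as higher. With the filter at the 75th percentile it dropped out. That left 2 higher and 2 lower in the adult-labelled library, and 3 higher and 2 lower in the neonatal-labelled library. Cdkn2c was below the filter in the 3 comparisons of cultures with iPS cells, so that 8 of the 9 could be called there. The medians over all 9 members, the dim Cdkn2c included, were 0.15, 0.35 and 0.27 in the cultures, against -0.02, 0 and 0 over all 22180 genes, and 0.85 and 0.81 in the adult-labelled and neonatal-labelled libraries, against -0.02 and -0.04. The 5 comparisons share the iPS library and are not independent of each other. Shifting the libraries to equal housekeeping medians moved the median of all genes by 0.46 to 0.84 in these comparisons. Such a shift is the same for every gene of a library and leaves the order of genes within a comparison as it was. It equalizes the median level of the 8 genes, and was larger in size than the median of their own differences from iPS cells. Those medians were -0.11, -0.41 and -0.29 in the cultures and -0.34 and -0.43 in the adult-labelled and neonatal-labelled libraries. Calls under a shift of that smaller size were not computed. The shift to equal medians turned the sign of Ccnd1 with DMSO, as given above, of Cdkn1b with DMSO plus NRG1 (0.78, against -0.03 as deposited) and of the dim Cdkn2c with DMSO (0.58, against -0.26). The calls under that shift were 4 higher and 1 lower for DMSO plus NRG1, 3 and 2 for NRG1, and 5 and 1 for DMSO. They were 6 and 2 for the adult-labelled library and 6 and 1 for the neonatal-labelled library. The share of all genes called under the shift was not computed, so these counts have no background.

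Next the cultures were compared with each other, which asks what each agent adds. As deposited, no member was 2-fold apart in any of these 3 comparisons. NRG1 alone had lower levels of all 3 D-type cyclins than DMSO alone, at differences of -0.53 for Ccnd1, -0.62 for Ccnd2 and -0.48 for Ccnd3, and that of Cdkn1a was -0.90 (1.87-fold lower), at the 2.4th percentile of all genes. These 4 differences exceeded the probe set disagreement of 0.305. Those of Ccne1 (0.07), Cdkn1b (0.09), Cdkn2a (0.28) and Cdkn2b (-0.16) did not, and the first 3 changed sign with equal housekeeping medians, a shift that moved the median of all genes by -0.38. That shift took 2 members past 2-fold lower, Cdkn1a (-1.28) and, just at the threshold, Ccnd2. It lowers NRG1 because the median level of the 8 housekeeping genes was 9.36 with NRG1 and 8.98 with DMSO. Gene by gene, their median difference was -0.19, which would move the members the other way. The sign changes and 2-fold calls after the shift are therefore not relied on. In this comparison the 2-fold background was 0.36% of genes higher and 1.78% lower. Of the genes around the G1 cyclins, 1 of 9 kinases and partners, Cks2 (1.29), and 1 of 12 proliferation markers, Ttk (1.07), were higher with NRG1. None of either list was 2-fold lower, and none of 24 E2F target genes was 2-fold apart. The list medians were 0.03 for kinases and partners, 0.22 for E2F targets and 0.25 for proliferation markers. Marker genes of other cell types moved in this comparison too. With NRG1, the cardiomyocyte list of 15 had 2 genes past 2-fold downward, Actn2 (-1.24) and Myh6 (-1.11), and 1 upward, Mybpc3 (1.13). The median difference of this list was -0.28, and its log2 summed level was 10.89 with NRG1, against 11.17 with DMSO. Sox2 (-1.19) and Tdgf1 (-1.06), from the list for pluripotent cells, also fell past 2-fold, and no gene of that list rose as far. The summed level was 13.19 with NRG1 against 13.44 with DMSO for 12 fibroblast genes, of which 1 was lower (Lum, -1.04), and 11.95 with NRG1 against 12.43 with DMSO for 7 smooth muscle genes, of which 1 was lower (Actg2, -1.11). It was 13.36 with NRG1 against 12.81 with DMSO for 11 endoderm genes, of which none was 2-fold apart. The part of these cells in the member differences was not tested.

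Adding NRG1 to DMSO left the members near their level with DMSO alone. The differences ran from -0.30 for Cdkn1b to 0.06 for Ccne1 over the 8 members that passed the filter. Those of Cdkn1b, Ccnd1 (-0.24) and Cdkn2a (-0.22) exceeded the probe set disagreement of 0.197. The 2-fold background here was 0.0455% of genes higher and 0.053% lower, so these libraries differed little in general.

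The culture with DMSO plus NRG1 was higher than that with NRG1 alone in Cdkn1a by 0.82, at the 97.8th percentile of the genes that passed the filter, in Ccnd2 by 0.60 and in Ccnd3 by 0.43. Cdkn2a (-0.50) and Cdkn1b (-0.39) were lower in it, at a probe set disagreement of 0.299. The 2-fold background was 1.08% higher and 0.293% lower. With equal housekeeping medians Cdkn1a passed 2-fold, at 1.17, after a shift of the median of all genes by 0.35. The housekeeping genes' own median difference was 0.12, which would move the members the other way, so this call is not relied on. Here too 2 of 15 cardiomyocyte genes and 1 of 12 fibroblast genes were at least 2-fold higher, and 1 of 11 endoderm genes was lower. Of 9 kinases and partners, 1 was lower, Cks2 (-1.17). The 3 comparisons use the same 3 libraries in pairs, so their values are not independent.

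Between the heart-derived libraries, the adult-labelled one was lower than the neonatal-labelled one in Ccne1 (-0.72) and in Ccnd3 (-0.45), the only members past the probe set disagreement of 0.345. Ccnd1 (-0.31), Ccnd2 (-0.19) and Cdkn1a (-0.19) were nearer to 0, as were Cdkn1b (0.17), Cdkn2a (0.32), Cdkn2b (0.04) and Cdkn2c (-0.03). No member was 2-fold apart, against a background of 2.52% of genes higher and 2.92% lower. Macrophage genes moved with this comparison, 5 of 12 being at least 2-fold higher and none lower in the adult-labelled library, and cardiomyocyte genes too, 7 of 15 being lower. Their part in the member differences was not tested.

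**Figure D3:**
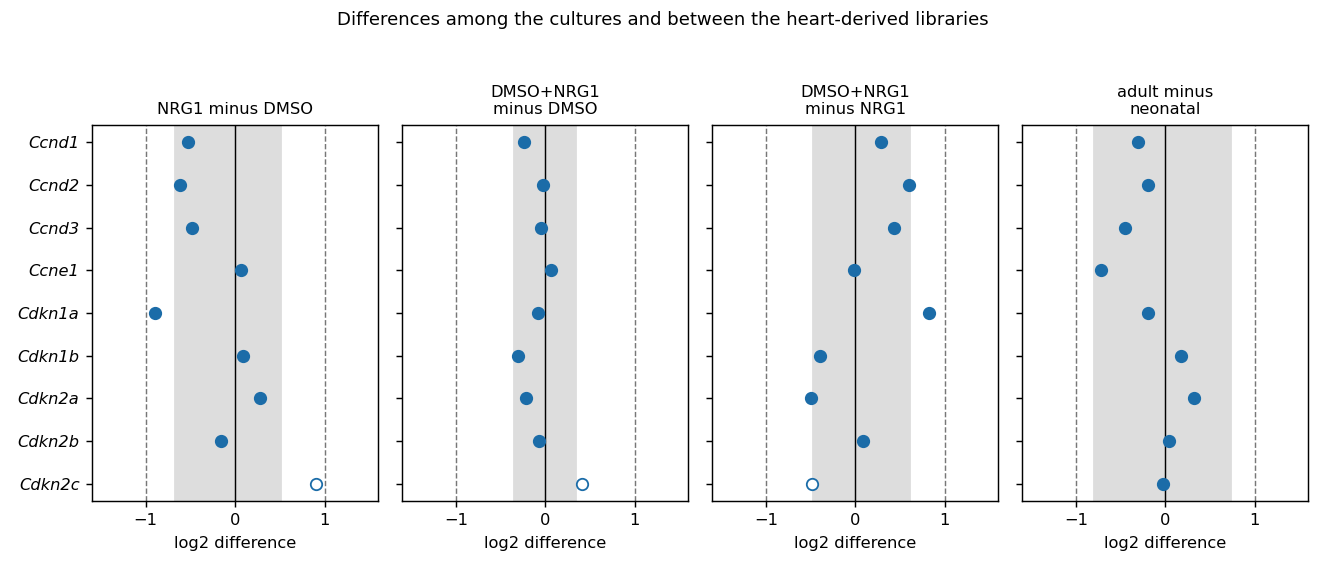
Differences of each gene on the log2 scale (horizontal axis) among the cultures and between the heart-derived libraries, drawn as for iPS cells with dashed lines at 2-fold and the grey band from the 5th to the 95th percentile of all genes tested. No gene passes 2-fold as deposited, and Cdkn1a is the only filled point beyond the band both for NRG1 minus DMSO (-0.90) and for DMSO+NRG1 minus NRG1 (0.82).

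The genes around the G1 cyclins were read from lists chosen by function. Among all genes that passed the filter, 13.0%, 11.3%, 13.1%, 13.1% and 13.0% were at least 2-fold higher than in iPS cells. The shares lower were 13.1%, 14.5%, 13.3%, 14.1% and 11.2%. The order is DMSO plus NRG1, NRG1, DMSO, adult-labelled and neonatal-labelled, and these shares are the background of every list count against iPS cells. In the lists as in the background, a gene below the filter in iPS cells could be called only as higher. Of the 9 kinase and partner genes, Cdk6, a partner kinase of the D-type cyclins, was the one at least 2-fold higher than in iPS cells in 4 of the 5 comparisons. A count of 1 in 9 is near the background of higher genes. Its level was 8.33 with DMSO plus NRG1, 7.72 with NRG1, 8.44 with DMSO, 9.13 in the adult-labelled library and 9.52 in the neonatal-labelled library, against 6.98 in iPS cells. Like Ccnd2, it was lowest in iPS cells, highest in the neonatal-labelled library, and lowest of the cultures with NRG1. Cdk4, the other kinase of these cyclins, went the other way in the cultures, differing from iPS cells by -1.32, -1.61 and -1.13, and by -0.36 in the adult-labelled and -0.18 in the neonatal-labelled library. The heart-derived values of Cdk4 were smaller in size than the housekeeping shifts of 0.52 and 0.65 in those comparisons.

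Many genes downstream of the cyclins were lower than in iPS cells in the values as deposited, fewest in the neonatal-labelled library. Of 24 measured E2F target genes, 22 were at least 2-fold lower with DMSO plus NRG1, 21 with NRG1 and 22 with DMSO, 19 in the adult-labelled library and 8 in the neonatal-labelled library, and none was 2-fold higher in any of them. The list medians were -1.77, -1.90, -2.02, -1.77 and -0.81 in that order. Examples are Mcm2, a subunit of the replicative helicase, which differed by -2.51, -2.78, -2.92, -2.52 and -1.49, and Cdt1, which loads that helicase, at -2.06, -2.17, -2.36, -2.98 and -2.18. Among 16 pocket protein and E2F genes, 8, 7 and 8 were 2-fold lower in the cultures, 4 in the adult-labelled and 2 in the neonatal-labelled library, whose median of -0.17 was 0.48 with equal housekeeping medians. Mybl2, a Myb factor of cycling cells, had the largest difference of this list in every one, from -3.32 with DMSO plus NRG1 to -4.36 in the adult-labelled library.

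Proliferation markers were lower in the cultures and the adult-labelled library in particular. All 12 were at least 2-fold lower than in iPS cells in each culture, 11 were in the adult-labelled and 2 in the neonatal-labelled library, with medians of -1.95, -1.92, -2.17, -1.57 and -0.53, the last of which was 0.12 with equal housekeeping medians. Mki67, the Ki-67 antigen, stood at 8.76 with DMSO plus NRG1, 8.44 with NRG1, 8.40 with DMSO, 9.66 in the adult-labelled and 10.29 in the neonatal-labelled library, against 10.46 in iPS cells. The heart-derived libraries thus had Mki67 above the cultures and also the highest levels of Ccnd1, Ccnd2 and Cdkn2c. A list of S phase and mitosis held the cyclins Ccna1, Ccna2 and Ccnb2, and also Cdk1, Cdc25a, Cdc25b, Cdc25c and Foxm1. Of it, Ccna2, Cdk1 and Cdc25a are in the E2F target list too. Of these 8 measured genes, 7, 6 and 7 were 2-fold lower in the cultures, 3 in the adult-labelled and 1, Cdc25a, in the neonatal-labelled library. The neonatal-labelled median of -0.20 was 0.45 with equal housekeeping medians.

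**Figure D4:**
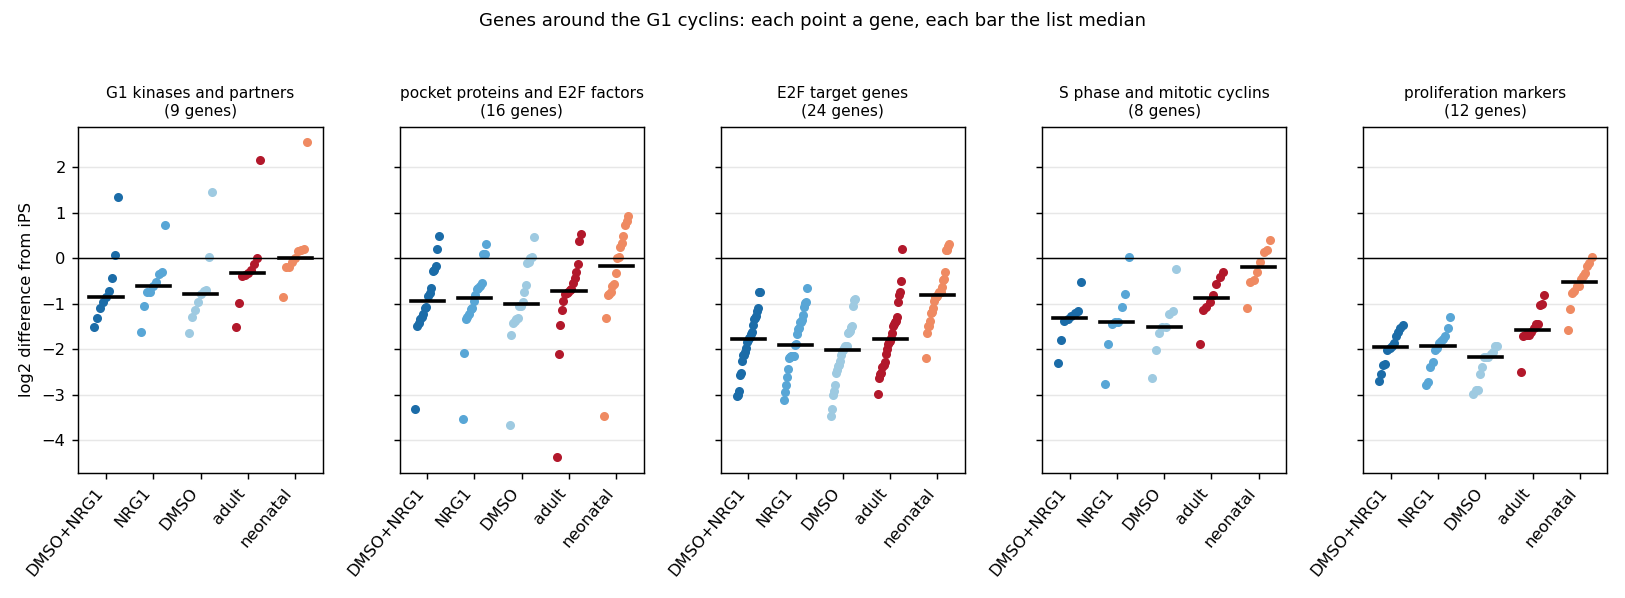
Differences from iPS cells on the log2 scale (vertical axis) of the genes in 5 lists around the G1 cyclins, by library; each point is a gene and each black bar the list median. The list of S phase and mitotic cyclins also holds Cdk1, Cdc25 genes and Foxm1. The medians of E2F targets and proliferation markers lie between -1.77 and -2.17 in the cultures and at -0.81 and -0.53 in the neonatal-labelled library, and the high point of the kinase list is Cdk6.

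Other inhibitors and inputs were counted the same way. Of 3 other CDK inhibitors, 1, 0 and 1 were at least 2-fold higher in the cultures, and 1 was lower in each. None was 2-fold apart in the adult-labelled library, and 2 were higher in the neonatal-labelled library. Cdkn1c, which makes the CIP/KIP inhibitor p57 and is an imprinted gene, was higher than in iPS cells by 1.14, 0.87 and 1.18 in the cultures, by 0.94 in the adult-labelled library and by 1.85 in the neonatal-labelled library. Cdkn2d, which makes p19INK4d, differed by less than 2-fold in each, from -0.46 with DMSO to 0.73 in the neonatal-labelled library. Cdkn3 went the other way from Cdkn1c in the cultures, differing by -1.36 with NRG1 and -1.28 with DMSO. With DMSO plus NRG1 it was lower too, just at the 2-fold threshold. In the heart-derived libraries Cdkn3 was higher, by 0.51 in the adult-labelled and 1.52 in the neonatal-labelled one. Skp2, the F-box protein that marks p27 for breakdown, differed by -1.62, -1.96 and -1.61 in the cultures and by -1.28 in the adult-labelled library, but by -0.16 in the neonatal-labelled library.

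The p53 list was read without Trp53 itself, which was not measured by a probe set of 1 symbol. Of its 15 measured genes, 3, 2 and 3 were 2-fold higher and 2, 1 and 2 lower in the cultures, where the background of higher genes was 13.0%, 11.3% and 13.1%. In both heart-derived libraries 1 was higher and 4 were lower. The list medians of -0.21, -0.32, -0.24, -0.50 and -0.59 all turned positive with equal housekeeping medians. Btg2, an antiproliferative p53 target, was higher in the cultures by 1.53, 1.40 and 1.56 and stood at 0.90 and -0.59 in the adult-labelled and neonatal-labelled libraries. Pmaip1, which promotes apoptosis, was higher by 1.14, 1.13 and 1.25 there but differed by -2.31 and -1.79 in the adult-labelled and neonatal-labelled libraries. Plk2, a kinase induced by p53, had the same order as Cdkn1a among the cultures, at 10.64 with DMSO plus NRG1, 10.08 with NRG1 and 10.71 with DMSO.

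In the TGF-beta list, 6, 4 and 6 of 13 genes were 2-fold higher than in iPS cells in the cultures, 9 in the adult-labelled and 8 in the neonatal-labelled library, in which Cdkn2b was also higher. The receptor gene Tgfbr2 was higher in the cultures and the heart-derived libraries by 3.40, 3.01, 3.43, 2.82 and 2.14. The ligand gene Tgfb3 was higher by 1.31, 0.92, 1.37, 4.33 and 4.18, in the same order. Tgfb3 stood at 5.09 in iPS cells, just below the filter, so it could be called only as higher. Of 17 measured regulators of the Cdkn2a locus, 2 were higher and 4, 4 and 6 lower in the cultures, and 2 and 3 were higher and 6 and 5 lower in the adult-labelled and neonatal-labelled libraries. A count of 2 in 17 is near the background of higher genes, which was 13.0%, 11.3% and 13.1% in the cultures. The background of lower genes there was 13.1%, 14.5% and 13.3%. Ets2, an activator of p16INK4a, was higher by 3.77, 3.73 and 3.85 in the cultures and stood at 0.39 and 0.31 in the heart-derived libraries. Phc1, a Polycomb subunit, differed by -3.71, -3.85 and -3.76 in the cultures and by -3.94 and -3.58 in the heart-derived libraries. Cdkn2a itself differed from iPS cells by 0.32, 0.82 and 0.54 in the cultures. Myc was highest in the heart-derived libraries, at 9.50 and 9.48, against 7.91 in iPS cells, and Mycn, its embryonic relative, differed there by -1.58 and -2.08 and in the cultures by -1.06, -0.84 and -1.12.

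For each member that spanned 1 or more on the log2 scale, the genes with the most similar pattern over the 6 libraries were found by Pearson r. The search covered 6682 genes that also spanned 1 or more and reached the median of all values. Ccnd2 was followed most closely by Tmem176b (0.997), Ankrd50 (0.996) and Anxa5 (0.996), and Ccnd1 by Cpne2, Trib2 and Mark1 (0.997 each). Ccne1 was matched by Cacybp (0.999), Nek3 (0.998) and Serbp1 (0.998), and Ccnd3 by Ubr7 (0.998), Heatr1 (0.997) and Rad51c (0.996). For Cdkn1a these were Hsd17b7 (0.991), Trim16 (0.980) and Wsb1 (0.978), for Cdkn2b Tnfaip3 (0.999), Clptm1l (0.998) and Gnas (0.997), and for Cdkn2c Bdnf (0.998), Ston1 (0.996) and Rap1gds1 (0.995). With 6 points from shared arrays and so many genes searched, such values are a description only.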

How the data were processed

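RNA of 6 samples was measured with 1 array each. The labels' protocols give TRIzol extraction, column clean-up and an input of 300 ng. The deposited values are log2 levels of 41345 probe sets, made by the authors with RMA, per the submitters' processing notes. The sources used here give neither its version nor a scan batch. The sorted values of the columns differ by at most 0.285, which would hide a shift common to most genes. Because the table gives no background or detection values, a filter was set at the median of all values (5.20).

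Of the probe sets, 23521 carried 1 symbol in the platform annotation, 1814 several and 16010 none. The mean over probe sets gave 22180 genes. Differences between libraries were taken before rounding. Probe set disagreement was computed over 449 to 509 genes with 2 probe sets, as the SD of the gap between their log2 differences scaled to 1 probe set. Groups came from the sample titles. Precision is limited by the number of arrays. The text names all members, up to 4 genes of a list with the largest differences in a comparison, any marker gene, and the 3 genes of most similar pattern. Some genes are named only to show what a list holds. Cdk4, Cdkn2d, Cdt1, Mcm2, Mki67, Mycn, Myc, Plk2 and Skp2 are in part given outside that rule, chosen after their values were seen. The members and lists were chosen with earlier results of these data known. Python 3.11.15, R 4.3.3 and limma 3.58.1 (cyclic loess) were used, and the counting was tested on simulated data. Alternatives were no filter, a filter at the 75th percentile (6.93), the brightest probe set, cyclic loess, equal medians of 8 measured housekeeping genes, and a 1.5-fold threshold.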

Additional observations from a re-analysis of the deposited data

Results flagged for a closer look

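Ccnd1 moved one way from iPS cells in every culture and the other way in both heart-derived libraries. Its differences were -0.99 with DMSO plus NRG1, -1.27 with NRG1 and -0.75 with DMSO, against 0.95 in the adult-labelled and 1.26 in the neonatal-labelled library. The mean of the cultures differed from that of the heart-derived libraries by -2.11 on the log2 scale. With 1 library per group this difference was not tested. The split was looked for in the members only, and the share of all genes that show it was not counted. The genes of most similar pattern, Cpne2, Trib2 and Mark1, were split the same way around iPS cells. They were picked by their r with Ccnd1 over these same libraries, so the shared split adds no support. With equal housekeeping medians the differences were -0.18, -0.82 and 0.09 in the cultures, none past 2-fold, against 1.47 and 1.91 in the heart-derived libraries. That shift was larger in size than the housekeeping genes' own median differences from iPS cells. Fibroblast genes were far higher in the heart-derived libraries, and their part in this result was not tested. Outlying samples could not be looked for, because no group has more than 1.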

How the results depend on the processing

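With 1 library per group no difference here has a replicate check. No paired analysis was possible because each group holds 1 library, and no replicate could be left out. The counts of members 2-fold apart from iPS cells were 4 with DMSO plus NRG1, with NRG1 and with DMSO, 5 in the adult-labelled and 6 in the neonatal-labelled library, and 0 in each of the other 4 comparisons. The 5 and the 6 include Cdkn2c, which passed the filter only through those libraries. No filter, a filter at the 75th percentile, the brightest probe set and cyclic loess kept every count within 1.5 times. Equal housekeeping medians gave 8 for the adult-labelled library, 2 for NRG1 minus DMSO and 1 for DMSO plus NRG1 minus NRG1. A 1.5-fold threshold gave 8 for the adult-labelled library and 1 for adult-labelled minus neonatal-labelled. It gave 2 for NRG1 minus DMSO and 2 for DMSO plus NRG1 minus NRG1. The share of all genes called was not computed for any alternative. Of the 81 single differences, 27 moved by 1.5-fold or more with equal housekeeping medians and 0 with cyclic loess, and no difference past 2-fold changed sign. Equal housekeeping medians changed the sign of 54 of 207 list medians.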

Other observations

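The probe set annotated to both Ccne2 and Ints8 had a log2 level of 7.51 with DMSO plus NRG1, 7.51 with NRG1, 7.02 with DMSO, 7.26 in the adult-labelled library and 8.45 in the neonatal-labelled library, against 7.29 in iPS cells. The neonatal-labelled library was the highest. Which of the 2 genes gives this signal is not known from the table.

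A list of genes of the senescence secretory response, which also holds a receptor gene (Plaur) and a nuclear lamin gene (Lmnb1), was read too. Of 18 measured, 11 were at least 2-fold higher in the adult-labelled library than in iPS cells and 9 in the neonatal-labelled library, and 7, 5 and 8 were with DMSO plus NRG1, NRG1 and DMSO. Lmnb1 was 2-fold lower in each culture and in the adult-labelled library. The background of higher genes was 13.1% and 13.0% in the heart-derived libraries and 13.0%, 11.3% and 13.1% in the cultures, in the same order. Il6, interleukin 6, was higher in the adult-labelled than in the neonatal-labelled library by 2.89. Its level in iPS cells was 3.86, so against iPS cells it could be called only as higher. Plaur, the urokinase receptor, was higher than in iPS cells by 3.92, 3.74 and 3.96 in the cultures. Genes linked to quiescence gave 3, 4 and 3 of 11 higher and 1, 0 and 1 lower in the cultures. Ccng2, cyclin G2, was among the higher ones, by 2.36, 2.59 and 2.29. In the adult-labelled library 3 were higher and 1 lower. In the neonatal-labelled library 2 were higher and 2 lower, with a list median of -0.55. Mxd4, a Myc antagonist, was higher than in iPS cells by 2.41 in the adult-labelled library, the largest difference in the list of growth factor and Myc inputs there.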
